A study of Homo sapiens with 6 samples.

Results

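Lysosomal genes were examined for RNA fragments enriched with an antibody against N1-methylguanosine (m1G) in PANC-1, an established cell line from a human pancreatic ductal adenocarcinoma. The group was a list of 38 genes chosen by name, with earlier results of these data known. They are among the 20046 protein-coding genes in the RefSeq gene table used here. The list holds 22 hydrolases, the precursors of the saposins and granulins, 6 membrane proteins, the transcription factor TFEB and 7 genes of the V-ATPase. The values are the peaks of 2 deposited lists that fall inside the gene spans. The MeTDiff list gives stretches of transcript with a strand and a fold enrichment of precipitate over input, and 72 of its 18431 peaks lay inside the 38 spans on the strand of the gene. The MACS2 list gives 1 bp summits without a strand, and 31 of its 6264 summits lay inside the spans.

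The study had 6 libraries of polyA+ RNA in 4 groups. Control-transfected cells gave 1 input and 2 m1G precipitates, and cells transfected with siRNA against TRMT5, depleted for 4 days, gave 1 input and 2 m1G precipitates, all in batch I. The labels do not say whether the precipitates of a group came from separate cultures. TRMT5 is the enzyme that places m1G beside the anticodon of tRNAs. Neither list names a library or a condition, so which libraries entered a value is unknown. Every value below is the authors' value per peak or summit, without replicate error, and knockdown was not compared with control. The depth of the libraries is unknown from these lists. Only transcribed genes can yield fragments, so a share of genes with a peak moves with expression too. Expression was not analysed here, and neither were the markers of the cell line.

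Lysosomes are acidic organelles in which hydrolases break down proteins, glycans, lipids and nucleic acids. The V-ATPase pumps protons into them, heavily glycosylated membrane proteins such as the LAMPs line and shield their limiting membrane, and TFEB switches on many of their genes. Pancreatic cancer cells are known for a high demand on autophagy and lysosomal breakdown to obtain nutrients.

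Most of these genes had an m1G peak, and in RNASET2, ATP6AP1, GRN, CTSZ and SMPD1 the peak of largest fold reached into the first transcribed bases. Of the 38 genes, 33 had a MeTDiff peak (86.8%, 95% Wilson interval 72.7 to 94.2), where 36.6% of all protein-coding genes had one. A MACS2 summit was present in 15 (39.5%, interval 25.6 to 55.3), beside 18.0% of all protein-coding genes, and 14 had both (36.8%), beside 16.7%. The intervals cover counting error only. The list was chosen with earlier results of these data known, so it was not tested against other genes. When only genes with a peak or a summit in either list were counted, 33 of 34 lysosomal genes had a MeTDiff peak (97.1%), beside 96.5% of such protein-coding genes. Few genes have a summit alone (7334 of those 7599 protein-coding genes had a peak). This share is therefore high by construction and cannot tell lists of genes apart. The median fold of the peaks of the 38 genes was 4.11, from 1.30 to 22.7, and the median over protein-coding genes was 4.17. The median score of the summits of the 38 genes was 22.8 (95% interval 13.9 to 35.7, n = 31), beside 16.4, which lies inside that interval. PSAP held 6, CTSD 5 and GRN 4 of these summits. This score is a −log10 value from MACS2, and whether it is of p or of q is not stated. ASAH1, which encodes acid ceramidase, LAMP2, a major protein of the lysosomal membrane, ATP6V0C, the proton-binding ring subunit of the V-ATPase, and ATP6V1A, its catalytic subunit, had neither a peak nor a summit inside the span.

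**Figure D1:**
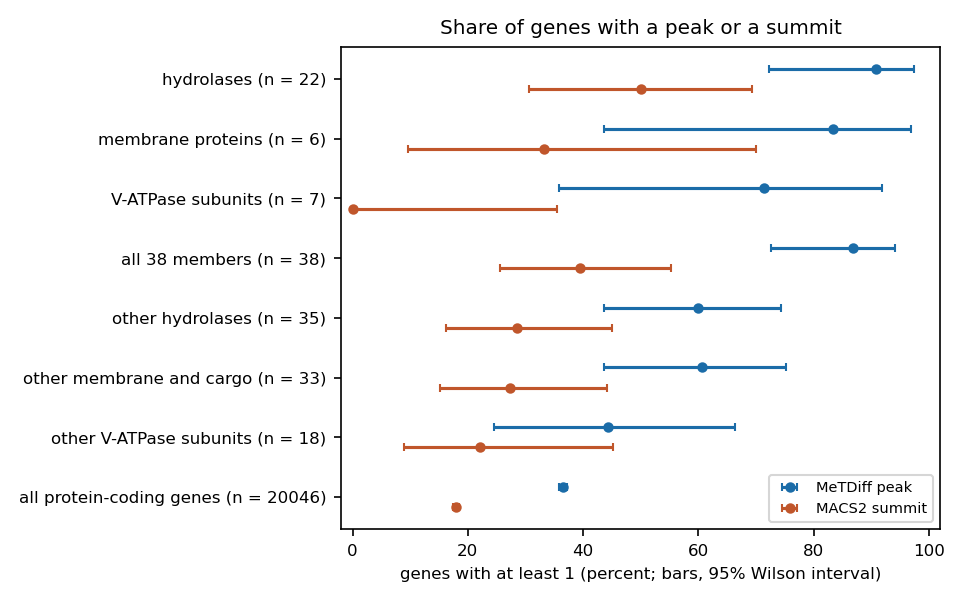
Share of genes with at least 1 MeTDiff peak (blue) or MACS2 summit (orange) inside the gene span, in percent of the genes of each list, with 95% Wilson intervals as bars. The 38 members sit at 86.8% and 39.5%, all protein-coding genes at 36.6% and 18.0%, and the 7 V-ATPase members at 71.4% and 0%.

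The first 30 transcribed bases of 6 genes are shown because each had a MACS2 summit 100 bp or less from its 5′ end, and their MeTDiff peaks of largest fold lay over or near it. Sequences are from RefSeq (GRCh38.p14), where 27 of the 38 genes have an entry. They read 5′ to 3′ on the gene's strand. Capitals mark the guanosines, the bases that m1G can be formed from.

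RNASET2 (chr6:166956521-166956550, minus strand): GaGcaacGcGactGaccGtGGtcGtGGGcG

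ATP6AP1 (chrX:154428677-154428706, plus strand): aGtGGaGGctGaGGctatGatGGcGGccat

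GRN (chr17:44345302-44345331, plus strand): GctGctGcccaaGGaccGcGGaGtcGGacG

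CTSZ (chr20:59007225-59007254, minus strand): aaaGtGcGGGGtcGGccGGGtGctGGGccG

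SMPD1 (chr11:6390474-6390503, plus strand): aGtcaGccGactacaGaGaaGGGtaatcGG

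GUSB (chr7:65982184-65982213, minus strand): aGacGGtGGccGaGcGGGGGaccGGGaaGc

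Guanosines numbered 10 of the 30 bases in SMPD1, 12 in GRN, 13 in RNASET2 and in ATP6AP1, and 16 in CTSZ and in GUSB. Of the 27 genes with an entry, 11 (40.7%) had a MeTDiff block on their strand over some of the first 50 transcribed bases, where 8.72% of 15842 protein-coding genes did. These are shares of all genes with an entry. A MeTDiff peak anywhere inside the span was present in 25 of those 27 (92.6%), beside 38.2% of the 15842. The median G content of the first 50 bases was 44.0% in the 11 genes with such a block and 36.0% in the other 16. Over all protein-coding genes it was 40.0% in the 1382 with such a block and 34.0% in the 14460 without. The median was thus higher where the start was covered, both in the lysosomal genes and over all genes, and the part of base composition in the peaks was not tested. Where a gene has several listed starts, the one with most covered bases was used. Genes without a covered base entered with the start holding most summits, or else that of lowest coordinate. The starts of the compared groups were thus not chosen alike. Those used for CD63 and SCARB2 lay inside their spans.

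Among the hydrolases, RNASET2 carried the largest values of both lists. It encodes a secreted and lysosomal ribonuclease that cuts RNA in acidic compartments. Its only MeTDiff peak, at 166956246 to 166956595 on chromosome 6, had a fold of 35.8 (FDR, the authors' false discovery rate per peak, 3.02e-05). This peak ran 45 bp past the annotated 5′ end of the gene, so it is not among the 72 peaks inside the spans. Its only summit, at 166956536, lay inside that peak, on base 15 of the transcript shown above, and its score of 98.8 was above the highest score of 99.8% of the protein-coding genes with a summit.

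CTSZ, a lysosomal cysteine carboxypeptidase, had a peak of 15.5-fold that covered its first 50 bases (chromosome 20, 59006355 to 59007254, 2 blocks, FDR 7.41e-06). A second peak, at 58995733 to 58996660 in the 3′ part of the span, had a fold of 1.91. The summit inside the span, at 58995787, scored 20.6 and lay in the gap between the 2 blocks of that second peak, 28 bp from a block. A higher summit, of score 74.4 at 59007273, lay 19 bp before the annotated start and so outside the span.

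NAGLU, an enzyme of heparan sulfate breakdown, had peaks near both ends of its span on chromosome 17. The one nearest the 5′ end, at 42536291 to 42536440, had a fold of 12.0, and those towards the 3′ end had 4.69 (42543454 to 42543604) and 14.2 (42543753 to 42543902). FDR values ran from 0.00269 to 0.0148. A summit of score 13.9 lay 25 bp from the 5′ peak, and one of 13.6 lay inside the 4.69-fold peak.

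SMPD1, the acid sphingomyelinase, had 12.5-fold enrichment in a peak that began inside the sequence shown above (chromosome 11, 6390490 to 6390639, FDR 0.00501), and 3.60 in a second peak at 6391804 to 6391903. It held no summit in its span, but one of score 25.5 lay 21 bp before its start. GUSB, the beta-glucuronidase, had 4 peaks. The one nearest the start had a fold of 8.22 (chromosome 7, 65981914 to 65982165, FDR 1.78e-08), and the other 3, together in the interior between 65970359 and 65975184, had 2.10, 4.00 and 2.50. Its summit, of score 31.4 at 65982212, lay on base 2 of the transcript, 47 bp from the 8.22-fold peak.

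HEXA and IDUA had their strongest peaks in the 3′ part of the gene instead. HEXA, the alpha subunit of beta-hexosaminidase, had a peak of 13.6-fold at 72343959 to 72345248 on chromosome 15 (FDR 0.000204). Peaks of 7.58-fold and 6.62-fold on its strand lay near it, and the midpoints of all 3 were between 3135 and 5358 bp from the 3′ end of the span. The 6.62-fold peak carried another gene ID than the other 2. A pair of further peaks there, of 2.29-fold and 8.53-fold, lay on the opposite strand under yet another ID. The HEXA summit, of score 40.7 at 72344153, lay in the gap between the 2 blocks of the 13.6-fold peak, 13 bp from a block. IDUA, which removes iduronic acid from glycosaminoglycans, had 1 peak of 13.2-fold on its strand in 3 blocks (chromosome 4, 1002478 to 1003161, FDR 0.0055). Its summit scored only 5.91 and lay 44 bp from a block.

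CTSD, the main aspartic protease of lysosomes, had 5 peaks with folds from 3.37 to 4.70 between 1752854 and 1763805 on chromosome 11. It also had 5 summits, which from the 3′ to the 5′ side scored 22.8 at 1753098, 15.6 at 1753592, 45.6 at 1754157, 40.7 at 1757607 and 35.7 at 1761540. Of its 5 peaks, 2 carried another gene ID and overlapped peaks of the first. None of its summits lay inside a block of a peak on its strand. The summit of 35.7 lay inside a 6.5-fold peak on the opposite strand, where PRADX is annotated. CTSA, the protective protein of beta-galactosidase and neuraminidase, had peaks of 1.47-fold, 2.80-fold and 2.01-fold in the last part of its span (chromosome 20, 45897819 to 45898770). Its summits scored 9.96 at 45894884 and 20.9 at 45898344. A further peak of 5.50-fold ran across its 5′ end, 50 bp past the span. TPP1, a tripeptide-removing protease, had 2.04-fold and 7.11-fold enrichment. Its summit, of score 42.9, lay 45 bp from the 7.11-fold peak (chromosome 11, 6618753 to 6618952, FDR 8.71e-09). A peak of 4.04-fold across its 3′ end carried another gene ID and overlapped TAF10. GAA, which breaks down glycogen, had 4.69-fold and 4.85-fold enrichment, and its summit of 22.7 lay inside the 4.69-fold peak (chromosome 17, 80109952 to 80110972).

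The remaining hydrolases with a peak had 1 or 2 each, all under 5-fold. CTSB, CTSL, GLA, GLB1, IDS, MANBA, MAN2B1 and PPT1 had 1 peak each, with folds from 2.29 in GLB1, the beta-galactosidase, to 4.50 in the mannosidase genes MANBA and MAN2B1. NEU1 and SGSH had 2 peaks each, the strongest of 4.07-fold and 4.81-fold. Of these 10 genes, CTSB alone had a summit, of score 7.37, which lay 22994 bp from its peak. In MAN2B1 the peak covered the first 50 transcribed bases.

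The precursors of the saposins and granulins held 9 peaks and 10 summits together. PSAP, whose product is cut into the saposins that present lipids to hydrolases, had 6 peaks, the most of the 38 genes. From the 5′ to the 3′ side the folds were 7.42, 3.30, 3.28, 1.74, 3.73 and 7.05 (chromosome 10, 71816398 to 71831205). It also had 6 summits, of which the highest, at 71829118, scored 73.6, above the highest score of 98.8% of protein-coding genes with a summit. That summit lay 41 bp from a block of the 7.42-fold peak, and 2 others, of 27.8 and 26.2, lay inside peaks. The remaining 3 scored 37.9, 25.6 and 9.0. All of these peaks lay on the 3′ side of the middle of the span. GRN, whose product progranulin is a growth factor that is cut into granulins inside lysosomes, had its strongest peak at the other end. That peak, of 19.9-fold, covered the last 7 of the first 50 transcribed bases (chromosome 17, 44345345 to 44345494, FDR 0.000257), with weaker ones of 1.68-fold (44350548 to 44350760) and 6.70-fold (44352071 to 44352560) further along. Its 4 summits scored 44.6, 17.5, 38.7 and 3.82, and the highest lay on base 25 of the sequence shown above, 19 bp before the 19.9-fold peak.

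**Figure D2:**
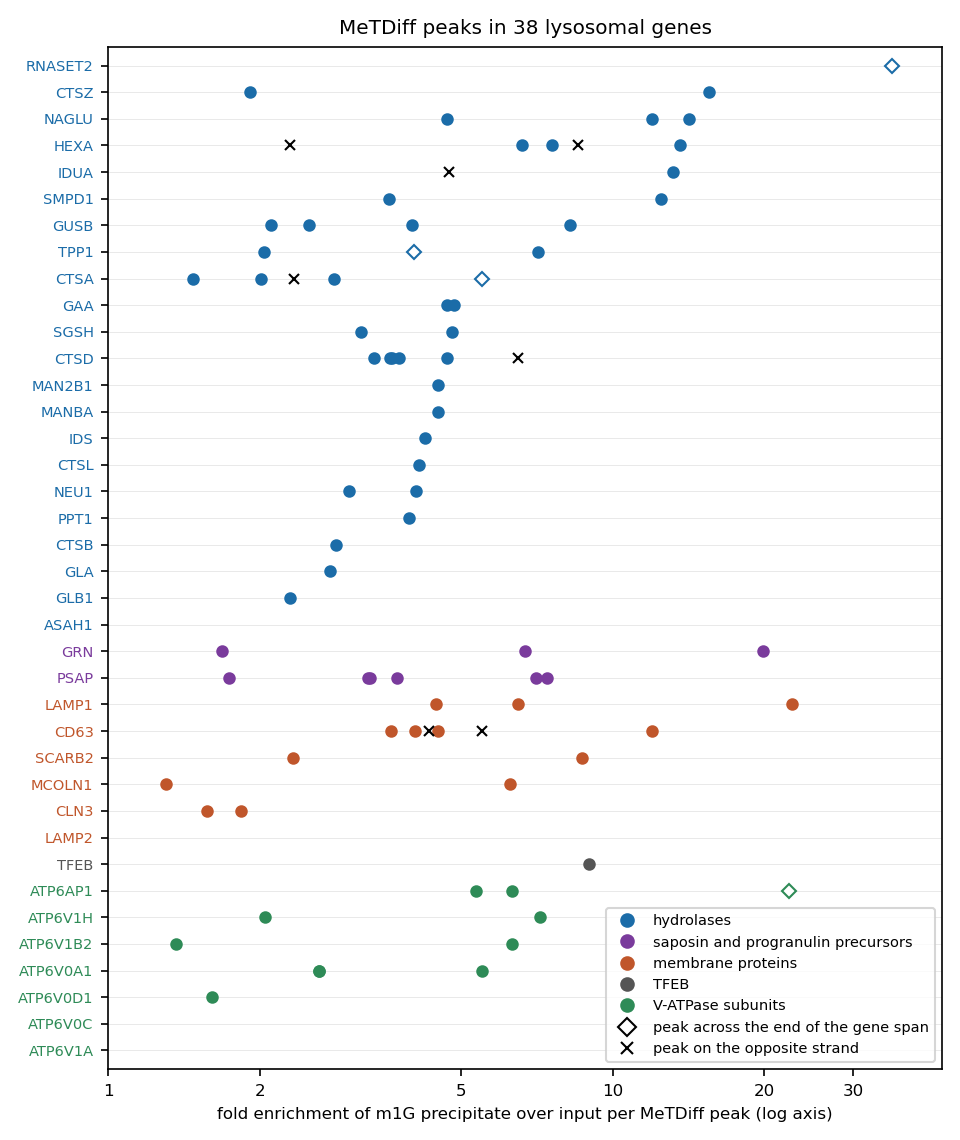
Fold enrichment of each MeTDiff peak (log axis) in each of the 38 genes, coloured by role. Filled circles are peaks inside the gene span on its strand, open diamonds are peaks across the end of the span, and crosses are peaks on the opposite strand. RNASET2 at 35.8-fold, LAMP1 at 22.7-fold and ATP6AP1 at 22.4-fold stand furthest to the right.

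Among the membrane proteins, LAMP1 had the largest fold of any peak inside a span, 22.7. LAMP1 is one of the most abundant proteins of the lysosomal membrane. Its 3 peaks, of 6.5-fold, 22.7-fold and 4.47-fold, lay next to each other between 113322125 and 113323223 on chromosome 13, in the last part of the span. All 3 carried the same FDR, 0.000141. The 22.7-fold peak held a summit of only 7.81, and the 6.5-fold peak one of 27.0, so fold and score ordered these neighbouring sites differently. The fold is a ratio and the score a −log10 value, so these are unlike measures. LAMP1 was the one gene with several summits that all lay inside its own peaks.

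CD63, a tetraspanin of late endosomes and exosomes, had peaks of 12.0-fold, 4.05-fold, 4.50-fold and 3.64-fold on its strand, in order from the 5′ end. Of these, 3 lay within 500 bp of a start that RefSeq lists for one of its transcripts. The 12.0-fold peak (chromosome 12, 55729149 to 55729359) overlapped a 5.50-fold peak on the opposite strand, where CD63-AS1 is annotated. The 12.4 summit of CD63 lay inside the peak on the opposite strand, and its other summit scored 8.53. A further peak of 4.33-fold on the opposite strand crossed the 5′ end of CD63. SCARB2, the receptor that carries beta-glucocerebrosidase to lysosomes, had 2.33-fold enrichment 189 bp from the start of a listed transcript. Its stronger peak, of 8.68-fold, lay towards its 3′ end (chromosome 4, 76161536 to 76161636, FDR 3.47e-05). MCOLN1, a calcium-releasing channel, had 1.30-fold and 6.25-fold enrichment, and CLN3, a membrane protein mutated in Batten disease, 1.57-fold and 1.83-fold. The 1.83-fold peak of CLN3 carried another gene ID. SCARB2, MCOLN1 and CLN3 held no summit. TFEB had 1 peak, of 9.0-fold, with its midpoint 300 bp from the 3′ end of the span (chromosome 6, 41684178 to 41684378, FDR 0.00692), and no summit.

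Of the 7 V-ATPase genes, 5 had a peak (71.4%, interval 35.9 to 91.8), beside 36.6% of all protein-coding genes. A summit inside the span was present in 0, beside 18.0%. A count of 0 of 7 allows a share of up to 42.9% when 3 counts are taken as the limit, and the Wilson interval ends at 35.4%. The 18.0% of all protein-coding genes lies below either limit, so the count of 0 does not set these genes apart. ATP6AP1, an accessory subunit needed for assembly of the pump, had peaks of 6.32-fold and 5.36-fold inside its span. Its strongest peak, of 22.4-fold, ran 32 bp past the 5′ end (chromosome X, 154428645 to 154428893, FDR 7.94e-06). A summit of score 49.4 lay inside that peak, 30 bp before the annotated start, so the count of 0 rests on the annotated ends. ATP6V1B2, a subunit of the ATP-splitting head, had 6.33-fold enrichment at its very start and 1.36-fold further along, and a summit of 24.0 lay 25 bp before its start. ATP6V1H, a regulatory subunit of the head, had 2.05-fold and 7.17-fold. ATP6V0A1, of the membrane sector, had 3 peaks of 5.50-fold, 2.62-fold and 2.62-fold, all in the last part of the span. The 5.50-fold peak had an FDR of 0.0468, just under the limit of 0.05 in the list, and the other peaks shared an FDR of 0.000282. ATP6V0D1, the link between both sectors, had 1 peak of 1.61-fold, 94 bp from its 3′ end.

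By place, 10 of the 72 peaks had their midpoint no more than 500 bp from the 5′ end (13.9%, beside 15.9% for protein-coding genes), 11 within 500 bp of the 3′ end (15.3%, beside 6.59%) and 51 in between. The count at the 3′ end was 7 with 200 bp (9.72%, beside 1.83%) and 17 with 1000 bp (23.6%, beside 15.7%). Counted by gene, 10 of the 38 (26.3%) had a peak at the 5′ end, where 13.1% of all protein-coding genes had one, and 9 (23.7%) had one at the 3′ end, beside 5.39%. Among genes with any peak, that was 10 of 33 members at the 5′ end, beside 2627 of 7334 protein-coding genes. At the 3′ end it was 9 of 33, beside 1081 of 7334. Of the 39 peaks of the hydrolases, 7 lay at the 5′ end (17.9%) and 2 at the 3′ end (5.13%). Of the 10 peaks of the V-ATPase genes, 4 lay at the 3′ end, of which 2 were of ATP6V0A1. With starts as RefSeq lists them for single transcripts, peaks at a start numbered 14. The added ones were all of CD63 and SCARB2, at starts inside their spans, and protein-coding genes were not counted in this way. Peaks joined over several blocks, which cross introns, were 25 of the 72 (34.7%, beside 34.1%). Whether a peak lies in coding sequence or UTR was not analysed here, since transcript models were not used.

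**Figure D3:**
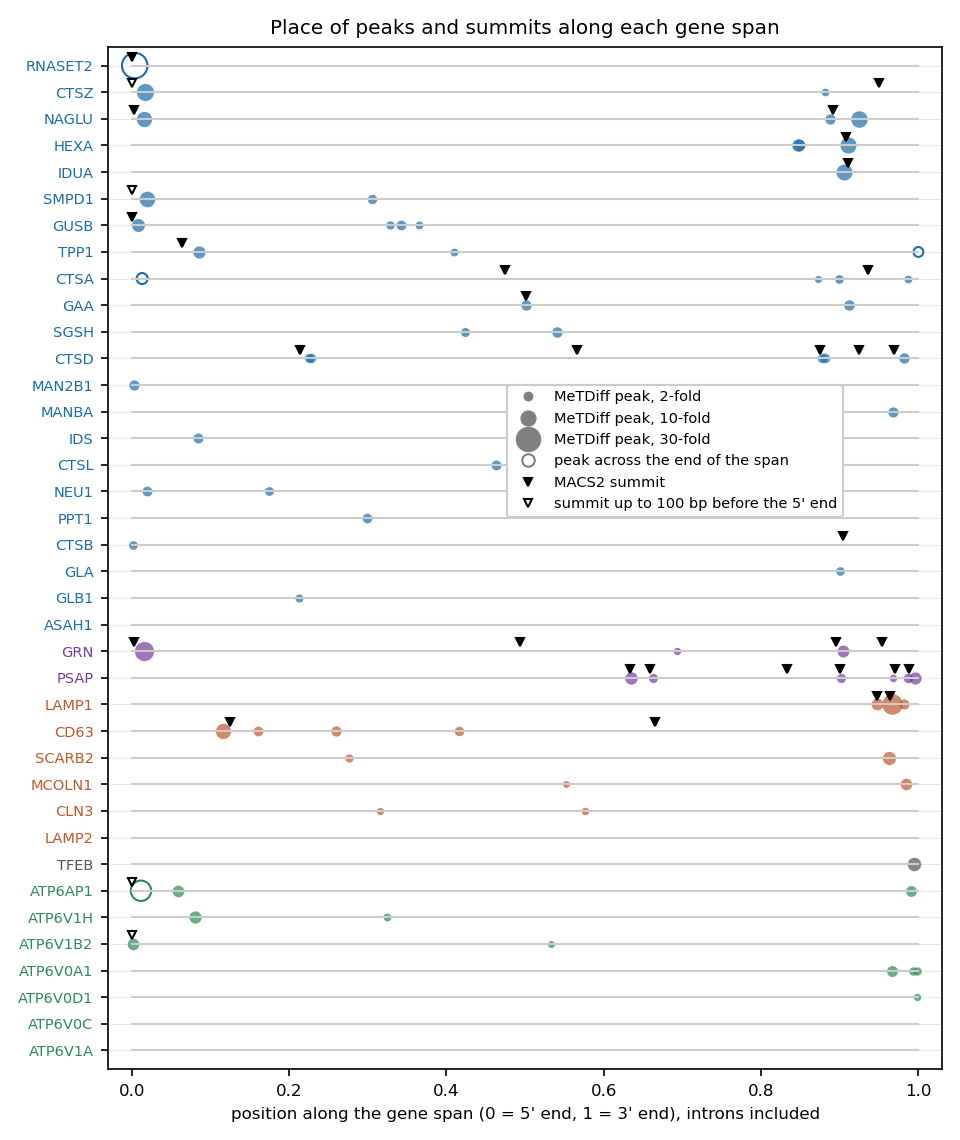
Place of each MeTDiff peak (circles, area rising with fold) and MACS2 summit (triangles) along the span of each of the 38 genes, from the 5′ end at 0 to the 3′ end at 1, introns included. Open circles are peaks across the end of a span (that of TPP1, centred past the 3′ end, is drawn at 1) and open triangles the 4 summits before a 5′ end. The peaks of largest fold of RNASET2, CTSZ, SMPD1, GRN and ATP6AP1 lie at the left edge, and all peaks of LAMP1, PSAP, HEXA and ATP6V0A1 towards the right.

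Summits in these genes lay outside the blocks of peaks more often than in a block. Of the 31 summits, 6 lay inside a block of a peak of their gene (19.4%, interval 9.19 to 36.3), beside 35.7% of the summits of protein-coding genes. A further 16 lay within 100 bp of a block, so that 22 of 31 lay in a block or that near it (71.0%, interval 53.4 to 83.9), beside 75.8%. Among those 16, the CTSD summit of 35.7, at 72 bp, and the CD63 summit of 12.4, at 9 bp, also lay inside a peak on the opposite strand. The RNASET2 summit, which is not among the 22, lay inside the peak across the end of the span, and the other 8 were more than 100 bp from any block. Counted over the whole extent of a peak, introns included, 48.4% of the 31 summits lay inside one. That share was not counted over protein-coding genes. Around the 5′ end, a summit lay within 100 bp of it in 6 of the 27 genes with a promoter entry (22.2%, interval 10.6 to 40.8), beside 5.06% of protein-coding genes. The 6 are those whose sequences are shown above, and in CTSZ, SMPD1 and ATP6AP1 the summit lay before the annotated start. This window was chosen after the positions had been seen. A summit anywhere inside the span was present in 40.7% of those 27 genes, beside 18.5% of the protein-coding genes with an entry.

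**Figure D4:**
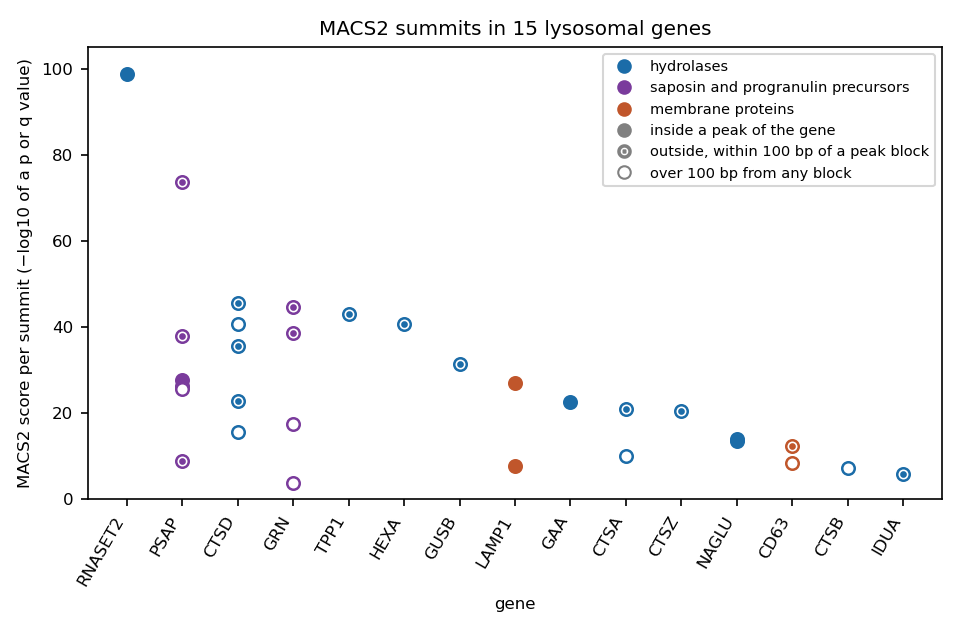
MACS2 score (−log10 of a p or q value) of each of the 31 summits in the 15 genes that hold one, ordered by the highest score. Filled circles lie inside a block of a peak of the gene (for RNASET2, the one across its 5′ end). Circles with a dot lie outside these blocks but within 100 bp of a block, and open circles lie further away. RNASET2 leads with 98.8 and PSAP follows with 73.6.

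Of 95 other lysosomal genes, listed from general knowledge, 54 had a MeTDiff peak (56.8%, interval 46.8 to 66.3) and 26 a summit (27.4%, interval 19.4 to 37.1), with a median fold of 4.25. These shares lay between those of the 38 and of all protein-coding genes, and the differences were not tested, since the 38 were chosen with results of these data known. Among 35 other hydrolases, 21 had a peak and 10 a summit. GALC, a galactosidase of myelin lipids, had 32.2-fold enrichment. DPP7, a dipeptidase, had 6 peaks and a highest score of 37.6.

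Among 33 other membrane and cargo proteins, 20 had a peak and 9 a summit. GNPTG, a subunit of the enzyme that marks hydrolases with mannose 6-phosphate, reached 15-fold. LAPTM4B had a score of 66.0, and OSTM1, the partner of a lysosomal chloride transporter, had 54.9, in a peak that crosses the end of its span. Among 18 other V-ATPase subunits, 8 had a peak and 4 a summit. ATP6V0A2 and TCIRG1 encode forms of the same membrane subunit as ATP6V0A1. They had 31.5-fold (FDR 0.00049) and 26.7-fold (FDR 0.000794) enrichment, where ATP6V0A1 had at most 5.50-fold (FDR 0.0468). ATP6V0A2 had a score of 47.4 and ATP6V1C2 of 39.3. The ATP6V1C2 summit and peaks lay where PDIA6 is also annotated, and a 7.61-fold peak on the opposite strand carried another gene ID there. Summits carry no strand, so that score cannot be assigned to one of these genes. Among 9 other regulators, 5 had a peak and 3 a summit. LAMTOR4, which helps to anchor mTORC1 signalling at lysosomes, had 9.20-fold with a score of 54.4, and TFE3, a relative of TFEB, had 9.09-fold with a score of 21.4.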

How the data were processed

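RNA of 6 libraries was sequenced. The 2 lists are the authors' deposited files, with no column per sample and no read counts, so depth is unknown. The submitters' processing notes name STAR 2.7.1, MACS2 2.2.5 and GRCh38, without roles. Which settings were used and which libraries were pooled is not given in the sources used here. The deposited MACS2 score is a −log10 p-value or q-value per summit. The deposited MeTDiff columns hold a p-value, the log10 of the FDR, and the fold, a ratio of precipitate over input, as read from column order and values. A MeTDiff row counted for a gene when its whole extent lay inside the RefSeq span (GRCh38.p14) on the gene's strand. Strand came from the promoter table (27 of 38 genes), otherwise from most rows in the span. Of the protein-coding genes, 15842 had a strand there. Midpoints are those of the covered bases. Rows across the end of a span are given apart. The members and lists were chosen with earlier results of these data known, so no test of a list was made. Full values were given for RNASET2, the 10 largest folds and scores, and the gene with most peaks, and for other lists the 2 largest folds and scores, of which some are not reported here. Assignment was tested on simulated data, and alternative settings are given at the end. Python 3.11.15, pandas 2.3.3, SciPy 1.17.1 and Matplotlib 3.10.9 were used.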

Additional observations from a re-analysis of the deposited data

How the results depend on the processing

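Of 30 alternative settings over 12 results, 23 left the value within its interval or a count within 1.5 times, and 7 moved it. The share of member summits inside a MeTDiff peak went from 19.4% to 48.4% with the whole extent of a row, introns included, and to 71.0% when a summit up to 100 bp from a block was accepted. It was 10.0% (n = 20) with FDR below and scores above the medians of the lists. The median fold went from 4.11 to 6.25 when the largest fold of each gene was taken, by construction. Peaks at the 3′ end numbered 11 with 500 bp, 7 with 200 bp and 17 with 1000 bp. The share of protein-coding genes with a peak went from 36.6% to 96.5% when only genes with a peak or a summit were counted, and that of the members from 86.8% to 97.1%, since few genes have a summit alone. Genes with a peak numbered 33 in the main setting and from 24, with FDR below the median of the list, to 34, with rows that overlap the span at all. The share of members among those with a peak or a summit, the summits within 100 bp of a 5′ end, the starts of single transcripts and the share among genes of known strand were chosen after seeing the data. So were the 3′ end shares of protein-coding genes at 200 and 1000 bp and the distances of summits to blocks on the gene's own strand. Spearman's rho with peaks across an end counted was also added then. No paired analysis was possible because the lists carry no sample columns. No replicate could be left out for the same reason.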

Other observations

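Enrichment folds of MeTDiff often fall on multiples of 0.25. Among the 63 member folds under 10, 12 lay within 0.005 of such a step (19.0%), where 36.3% of the folds under 10 in protein-coding genes did. The single peaks of MAN2B1 and MANBA, both 4.50-fold, and of IDS, 4.25-fold, are among the 12.

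Of the 22 members with 2 or more peaks, 8 had at least 1 FDR shared by several of their peaks, as in LAMP1. An FDR repeated in this way is not a separate measurement of each peak. Over the 14 members with both a peak and a summit, Spearman's rho between the largest fold and the highest score was -0.02, and over the 3345 protein-coding genes with both it was 0.36. RNASET2, highest in both lists among the members, is left out there because its peak crosses the end of its span. With peaks across an end counted, rho was 0.16 over 15 members and 0.38 over 3372 genes. Whether the lists rest on the same libraries is not stated, and these values are descriptions across genes.

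Opposite-strand peaks inside a span numbered 6, in 5 members (CTSA, CTSD, HEXA, IDUA and CD63), with folds from 2.29 to 8.53. The share of all protein-coding genes with such a peak is not given here, so the count does not show whether these members are unusual. The spans of 15 members overlap another gene. In CTSA the peak of 2.34-fold on the opposite strand overlapped one of 2.01-fold on its own strand, at the end shared with PLTP. Summits carry no strand, so those near such pairs cannot be assigned to one of the genes.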
